A study of Mus musculus with 16 samples.

Results

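Clones of 10 or more cells were examined among CD44high CD4+ T cells, the antigen-experienced helper T cells, sorted from the spleen of myeloma-bearing mice. The members were chosen by measured clone size. A clone was defined as the cells of 1 library that shared the V segment, the J segment and every base of complementarity-determining region 3 (CDR3) in the T cell receptor beta chain (TRB) and in the alpha chain (TRA) with the most unique molecular identifiers (UMIs). Cells were counted when they held exactly 1 TRB contig and 1 or 2 TRA contigs. By this rule 120 clones with 2204 cells were found, which is 5.78% of the 38108 paired cells and 0.394% of the 30489 clones. Clones of 1 cell, 27397 in number, served as the comparison. Because clone size chose the members, the number and size of clones are given below as a description, without a test.

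The study crossed Eomes genotype with an immunotherapy. All mice received an antibody that depletes NK1.1-bearing cells (50 µg, days -2 and 5), Vk12653 myeloma cells by vein at day 0, and then either an antibody that activates 4-1BB (CD137), a costimulatory receptor of T cells, or control IgG (20 µg, days 10, 13 and 16), and were killed at day 18. Wild-type (WT) mice carried the Eomes-IRES-GFP reporter. The knockout (KO) mice of experiment 1 were Eomesfl/fl-CD4Cre, in which the recombinase is driven by the CD4 promoter, and those of experiment 2 were Eomesfl/fl-ERT2CD4Cre, in which it depends on tamoxifen. In experiment 2 tamoxifen was given to WT mice as well. Each of the 4 combinations of genotype and treatment had 2 libraries, 1 per experiment, so effects of the experiment, of tamoxifen and of the kind of knockout cannot be told apart. The labels do not give the number of mice behind a library, and p-values measure the spread between these libraries.

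Each T cell assembles its own receptor from V, D and J segments, and trimming and random addition of bases at the joints make most CDR3 sequences rare. Cells that descend from 1 T cell keep the same receptor, so a large clone is usually read as division after antigen contact, which was not measured here. Near-identical receptors found in different mice are called public. A cell can carry a second rearranged alpha chain, because alpha genes are not strictly limited to 1 allele. Invariant natural killer T (NKT) cells and mucosal-associated invariant T (MAIT) cells instead share nearly fixed alpha chains.

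The libraries held 2656 to 8871 paired cells and 80551 to 445027 receptor UMIs. Library medians were 10 to 17 UMIs per TRB contig and 6 to 10 per TRA contig. Cells with a TRB and no TRA made up 25.9% to 46.8% of barcodes. The 28 pairs of libraries shared 35 to 245 cell barcodes each. Of the 900 shared barcodes that were paired cells in both libraries, 0 carried the same clone or the same TRB CDR3 in both. The fixed alpha chain of NKT cells (TRAV11 or TRAV11D with TRAJ18) was found in 0 of the 120 large clones, which allows a share of up to 2.5%, against 220 of the 27397 clones of 1 cell (0.803%). The largest clone with it in any library had 2 cells. The MAIT alpha chain (TRAV1 with TRAJ33) was also found in 0 of 120 and in 4 clones of 1 cell. The gene expression libraries, which would show the CD4 lineage markers, were not analysed here.

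The receptor of the largest clone in each library is shown as an example of the members, with 1 line per chain. Sequences are CDR3 nucleotides as deposited, 5′ to 3′. Capitals mark bases that are covered neither by the consensus start of that V segment nor by the consensus end of that J segment. Both were taken from the TRB, and the TRA with the most UMIs, of all clones of paired cells.
WT IgG, experiment 1, 30 cells, beta chain, TRBV15 and TRBJ2-1: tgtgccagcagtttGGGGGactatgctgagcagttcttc
WT IgG, experiment 1, 30 cells, alpha chain, TRAV14-2 and TRAJ31: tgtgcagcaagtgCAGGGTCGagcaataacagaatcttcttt
WT anti-4-1BB, experiment 1, 20 cells, beta chain, TRBV13-1 and TRBJ1-1: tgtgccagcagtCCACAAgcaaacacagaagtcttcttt
WT anti-4-1BB, experiment 1, 20 cells, alpha chain, TRAV7D-2 and TRAJ27: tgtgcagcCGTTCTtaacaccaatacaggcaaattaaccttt
KO IgG, experiment 1, 20 cells, beta chain, TRBV12-2 and TRBJ2-5: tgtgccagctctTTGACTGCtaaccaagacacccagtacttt
KO IgG, experiment 1, 20 cells, alpha chain, TRAV14D-3-DV8 and TRAJ12: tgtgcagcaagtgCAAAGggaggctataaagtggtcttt
KO anti-4-1BB, experiment 1, 11 cells, beta chain, TRBV10 and TRBJ1-4: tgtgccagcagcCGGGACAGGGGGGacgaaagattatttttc
KO anti-4-1BB, experiment 1, 11 cells, alpha chain, TRAV7D-2 and TRAJ13: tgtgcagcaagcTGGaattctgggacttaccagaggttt
WT IgG, experiment 2, 31 cells, beta chain, TRBV20 and TRBJ2-7: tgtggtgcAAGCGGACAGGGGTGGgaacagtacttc
WT IgG, experiment 2, 31 cells, alpha chain, TRAV3N-3 and TRAJ30: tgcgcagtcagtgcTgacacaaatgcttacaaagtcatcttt
WT anti-4-1BB, experiment 2, 61 cells, beta chain, TRBV13-1 and TRBJ1-1: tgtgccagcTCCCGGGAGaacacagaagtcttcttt
WT anti-4-1BB, experiment 2, 61 cells, alpha chain, TRAV14N-1 and TRAJ4: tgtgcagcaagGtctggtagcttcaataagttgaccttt
KO IgG, experiment 2, 33 cells, beta chain, TRBV10 and TRBJ2-5: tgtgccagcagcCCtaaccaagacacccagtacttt
KO IgG, experiment 2, 33 cells, alpha chain, TRAV4-4-DV10 and TRAJ49: tgtgctgctgagtaccagaacttctatttt
KO anti-4-1BB, experiment 2, 71 cells, beta chain, TRBV20 and TRBJ2-4: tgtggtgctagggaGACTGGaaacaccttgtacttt
KO anti-4-1BB, experiment 2, 71 cells, alpha chain, TRAV14-2 and TRAJ49: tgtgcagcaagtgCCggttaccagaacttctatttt
These 8 receptors use different TRB CDR3s throughout. Over all 120 members the TRB CDR3 was 30 to 54 bases long (median 42) and the TRA CDR3 30 to 48 (median 39). The capitals numbered 0 to 22 bases in TRB (median 9) and 0 to 9 in TRA (median 2). In clones of 1 cell the median was 9 bases in TRB and 2 in TRA in each of the 8 libraries.

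More than 1 in 2 large clones came from the anti-4-1BB libraries of experiment 2, which held 64 of the 120 clones (53.3%) and 1397 of the 2204 cells (63.4%) but 24.5% of the paired cells. In experiment 1 the WT IgG library had 7 large clones (30, 14, 14, 12, 12, 11 and 10 cells). The WT anti-4-1BB library had 13, of 10 to 20 cells (median 13), and the KO IgG library had 8 (20, 14, 12, 12, 11, 10, 10 and 10 cells). KO with anti-4-1BB had 1, of 11 cells. In all 4 libraries of experiment 1, only the clone of 30 cells exceeded 20.

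In experiment 2 the WT IgG library had 9 large clones (31, 17, 12, 12, 12, 11, 11, 11 and 11 cells). The KO IgG library had 18, of 10 to 33 cells (median 13.5). The WT anti-4-1BB library had 36, of 10 to 61 cells (median 15.5), and the KO anti-4-1BB library had 28, of 10 to 71 cells (median 15). The 4 clones of 49 cells or more in the KO anti-4-1BB library had 71, 68, 50 and 49 cells, and its next had 24. The plot of clone sizes by library shows this gap, and the more even spread in WT, where 16 clones had 20 or more cells.

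**Figure D1:**
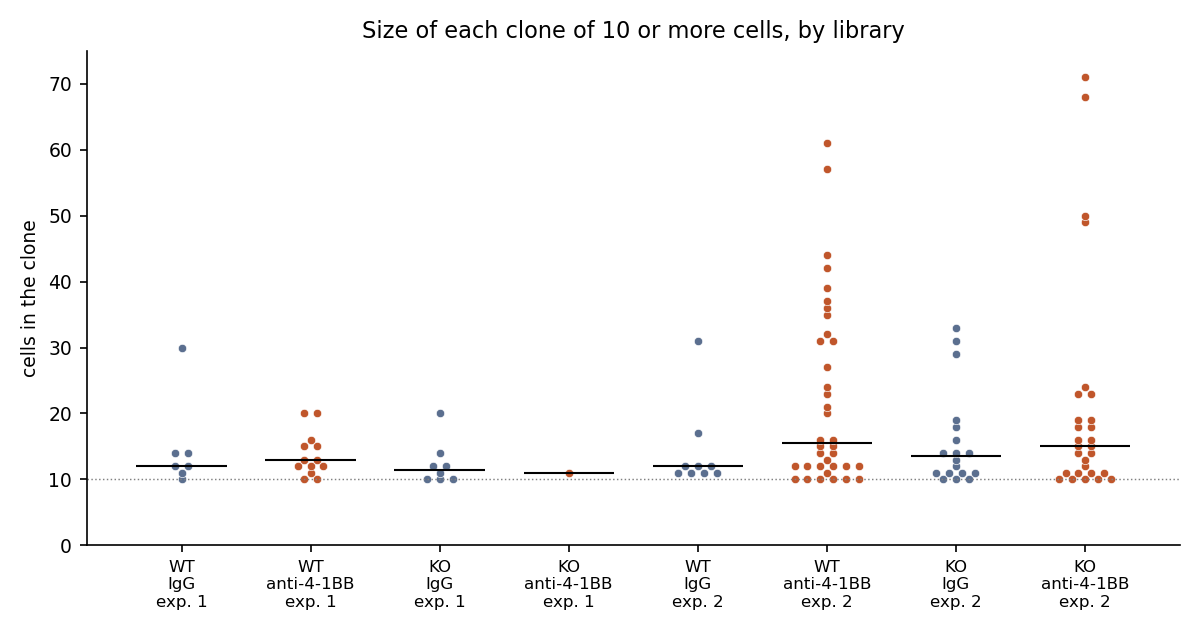
Size of each of the 120 clones of 10 or more cells (points, cells per clone) in the 8 libraries, IgG in blue and anti-4-1BB in orange, with the median as a black line and the minimum of 10 cells dotted. Clones above 33 cells occur only in the 2 anti-4-1BB libraries of experiment 2.

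As a share of paired cells, large clones held 2.54% (95% Clopper-Pearson interval 2.08% to 3.07%) in WT with IgG and 2.02% (1.74% to 2.33%) with anti-4-1BB in experiment 1. In KO of that experiment they held 3.63% (2.96% to 4.40%) with IgG and 0.414% (0.207% to 0.740%) with anti-4-1BB. In experiment 2 the shares were 2.87% (2.40% to 3.40%) and 18.2% (17.0% to 19.3%) in WT, and 4.79% (4.26% to 5.36%) and 12.0% (11.1% to 13.0%) in KO. The intervals cover counting error only, treat cells as independent although cells of 1 clone are not, and compare no libraries. The share in the anti-4-1BB library was lower than in its IgG library in both genotypes of experiment 1 and higher in both genotypes of experiment 2. Over both experiments the share was 2.70% ± 0.235 (SD, n = 2) in WT with IgG and 10.1% ± 11.4 (n = 2) with anti-4-1BB. In KO it was 4.21% ± 0.821 and 6.23% ± 8.22 (n = 2 each). In both genotypes the SD between experiments exceeded the difference between the treatments with anti-4-1BB, but not with IgG.

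A clone of 10 cells is a larger share of a small library than of a large one. At the expected value after thinning every library to 2656 paired cells, 2.27, 0.110, 7.26 and 1 clones of 10 or more cells remained in experiment 1 (in the order WT with IgG, WT with anti-4-1BB, KO with IgG, KO with anti-4-1BB). The same values in experiment 2 were 1.97, 18.8, 3.61 and 10.7. The order of the WT libraries in experiment 1 turned with thinning, since the 13 clones of WT with anti-4-1BB came from 8871 cells, and the 2 anti-4-1BB libraries of experiment 2 stayed on top. At the threshold itself, 20 clones had exactly 10 cells and 17 had 11, while 32 had 9 and 35 had 8.

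The beta chains of the large clones were spread over many segments. They used 18 of the 22 TRBV segments in the files, all 12 TRBJ, 39 of 88 TRAV and 37 of 43 TRAJ. The most used TRBV was TRBV1, with 16 clones (13.3% of large clones against 6.38% of clones of 1 cell), followed by the joined label TRBV12-2+TRBV13-2 with 15 (12.5% against 12.6%) and TRBV3 with 14 (11.7% against 10.5%). TRBV26 followed with 10 (8.33% against 5.07%) and TRBV13-3 with 9 (7.50% against 6.56%). Of the TRBJ segments, TRBJ2-7 was used by 32 clones (26.7% against 18.2%) and TRBJ2-4 by 27 (22.5% against 10.5%). TRBJ2-5 was used by 14 (11.7% against 14.4%), TRBJ1-1 by 9 (7.50% against 9.07%) and TRBJ2-1 by 7 (5.83% against 9.65%).

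Segments were also counted by family, as a description. The Vbeta8 family (TRBV13-1, TRBV13-2, TRBV13-3 and the joined label) was used by 32 large clones, 26.7% against 27.4%. The Vbeta5 family (TRBV12-1 and TRBV12-2) was used by 2, 1.67% against 4.87%. Beta segments that pair with the invariant NKT alpha chain (Vbeta8, TRBV29 and TRBV1) were used by 50, 41.7% against 35.8%. The TRBJ2 cluster was used by 92, 76.7% against 68.9%. In the alpha chain, TRAV13-1 was used by 16 large clones (13.3% against 3.77%) and TRAV7D-2 by 11 (9.17% against 6.53%). TRAV13N-2 and TRAV4-4-DV10 were used by 7 each (5.83% against 3.18% and 3.75%). TRAJ30 was used by 17 (14.2% against 3.65%) and TRAJ37 by 9 (7.50% against 4.87%). TRAJ23, TRAJ31 and TRAJ34 were used by 6 each (5.00% against 4.85%, 6.67% and 3.69%).

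Of 164 segments tested between large clones and clones of 1 cell, 2 (1.22%) passed, both alpha segments that were used more by large clones. TRAJ30 (chromosome 14, 54189866 to 54189924, GRCm38, a J segment) was used by 17 of 120 large clones and 999 clones of 1 cell, 14.2% against 3.65%. TRAV13-1 (chromosome 14, 53545014 to 53545525, a V segment) was used by 16 and by 1032, 13.3% against 3.77%. The log2 ratio was 1.80 ± 0.40 (SE) for TRAJ30, with an adjusted p of 0.00363 (edgeR quasi-likelihood test with the library as a block, Benjamini-Hochberg over 164 segments), and 1.66 ± 0.44 for TRAV13-1, with an adjusted p of 0.0176. Each was higher in 4 of 8 libraries.

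TRAJ30 was used by 7 of 36 large clones in WT with anti-4-1BB in experiment 2 and by 8 of 28 in KO, by 1 of 9 and 1 of 18 in the IgG libraries of that experiment, and by 0 in the 4 libraries of experiment 1. TRAV13-1 was used by 6 of 36, 7 of 28 and 2 of 9 in WT anti-4-1BB, KO anti-4-1BB and WT IgG of experiment 2, and by 1 of 7 in WT IgG of experiment 1. The other 4 libraries had 0. Among clones of 1 cell TRAJ30 lay between 3.13% and 4.93% and TRAV13-1 between 3.22% and 5.50% in all 8 libraries. Large clones were thus above clones of 1 cell in 3 libraries of experiment 2 for both segments, in KO with IgG of experiment 2 for TRAJ30 and in WT with IgG of experiment 1 for TRAV13-1. Without WT with anti-4-1BB of experiment 2 both calls ended, with log2 ratios of 1.56 for TRAJ30 and 1.51 for TRAV13-1 (edgeR, adjusted p = 0.393 for each). Both also ended without KO with anti-4-1BB of experiment 2, with 1.36 and 1.34 (adjusted p = 0.848 for each). Without the WT IgG library of experiment 2 TRAV13-1 had 1.55 and no longer passed (adjusted p = 0.114).

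The calls also depended on the scaling. With trimmed-mean (TMM) factors 54 segments passed and 0 of them were higher. With DESeq2 33 passed and all 33 were higher, although 25 of those were used by 0 large clones. Each clone counted once in these tests, and clones of 1 library with near-identical receptors are not independent of each other. Other segments did not pass. TRBV23 was used by 5 large clones (4.17% against 0.982%, log2 ratio 2.10 ± 0.64 SE), TRAV13N-1 by 6 (5.00% against 1.27%, 1.87 ± 0.62) and TRBV1 by 16 (1.02 ± 0.35). TRBV31 was used by 4 (3.33% against 7.77%, -1.24 ± 0.46) and TRBV19 by 1, against 1316 clones of 1 cell. TRBV13-2, TRAJ50 and TRAJ48 were used by 0 large clones and by 518, 426 and 444 clones of 1 cell. These were 1.89%, 1.55% and 1.62% of clones of 1 cell, so 0 among so few large clones is weak evidence of absence. The 0 for TRBV13-2 covers that separate label only. The joined label TRBV12-2+TRBV13-2, which can hold the same segment, was used by 15 large clones (12.5% against 12.6%).

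A set of 14 large clones joined TRBV1 (chromosome 6, 40891296 to 40891885, GRCm38) to TRBJ2-4 (chromosome 6, 41543362 to 41543410). Their TRB CDR3 began with the residues CTCS, ended with GSQNTLYF and differed at the 2 residues in between. In 13 of the 14 the alpha chain used TRAJ30, with the CDR3 ending DTNAYKVIF after CA and 1 further residue. They were found only in the anti-4-1BB libraries of experiment 2, 8 in WT and 6 in KO. The sequences of 6 are shown so that the bases between the fixed ends can be compared.
WT, 23 cells, residues AA, beta chain, TRBV1 and TRBJ2-4: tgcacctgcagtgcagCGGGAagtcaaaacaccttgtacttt
WT, 16 cells, residues AA, beta chain, TRBV1 and TRBJ2-4: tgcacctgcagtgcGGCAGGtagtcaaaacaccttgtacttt
WT, 12 cells, residues DR, beta chain, TRBV1 and TRBJ2-4: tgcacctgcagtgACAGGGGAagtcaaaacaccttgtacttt
KO, 68 cells, residues AL, beta chain, TRBV1 and TRBJ2-4: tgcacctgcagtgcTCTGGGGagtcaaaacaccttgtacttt
KO, 50 cells, residues AL, beta chain, TRBV1 and TRBJ2-4: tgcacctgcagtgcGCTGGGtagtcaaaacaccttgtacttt
KO, 49 cells, residues AV, beta chain, TRBV1 and TRBJ2-4: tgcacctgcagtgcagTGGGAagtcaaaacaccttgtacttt
WT, 23 cells, alpha chain, TRAV13-1 and TRAJ30: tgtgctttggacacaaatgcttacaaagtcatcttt
KO, 68 cells, alpha chain, TRAV13N-1 and TRAJ30: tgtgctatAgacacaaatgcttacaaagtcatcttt
KO, 50 cells, alpha chain, TRAV13N-1 and TRAJ30: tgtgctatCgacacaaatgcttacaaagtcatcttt
KO, 49 cells, alpha chain, TRAV13N-1 and TRAJ30: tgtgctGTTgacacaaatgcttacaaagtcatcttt
The WT clones of 23 and 16 cells had the same residues with different bases in TRB, and so did the KO clones of 68 and 50 cells. Of the 14, 13 could be linked through TRB CDR3s that differ by at most 1 residue, and these 13 had 13 different TRB nucleotide sequences. The middle residues of the 14 were most often AA, in 6, followed by AL and AV, in 2 each.

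The 8 WT clones of this set had 23, 20, 16, 16, 12, 10, 10 and 10 cells, and the 6 KO clones had 68, 50, 49, 11, 11 and 10. The alpha V segment was TRAV13-1 in 6 of the WT clones and in 1 of the KO clones, and TRAV13N-1, a related segment, in 1 and 4. A single KO clone used TRAV13D-1. The WT clone of 20 cells was the exception in TRAJ: its main alpha chain was TRAV7N-5 with TRAJ38, and 4 of its cells carried a second alpha chain of TRAV13-1 with TRAJ30.

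Receptors with the full motif in both chains were present in all 8 libraries. In experiment 1 they made up 3 clones with 3 cells in WT IgG, 7 with 7 in WT anti-4-1BB, 1 with 1 in KO IgG and 4 with 4 in KO anti-4-1BB. In experiment 2 they made up 9 clones with 10 cells in WT IgG and 13 with 17 in KO IgG. The WT anti-4-1BB library had 23 clones with 134 cells, 3.02% of its paired cells, and the KO anti-4-1BB library 44 clones with 304 cells, 6.20%. In the 6 other libraries the motif held 0.0367% to 0.284% of paired cells. Of the motif cells, 97 in 7 large clones in WT and 199 in 6 large clones in KO were members. The motif was read from these same clones, so its abundance carries no test. With all TRBV1-TRBJ2-4 clones left out of the segment fit, a step chosen after seeing the data, the log2 ratio was 0.044 for TRAJ30 (edgeR, adjusted p = 0.995) and 1.10 for TRAV13-1 (adjusted p = 0.782), and neither passed.

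**Figure D2:**
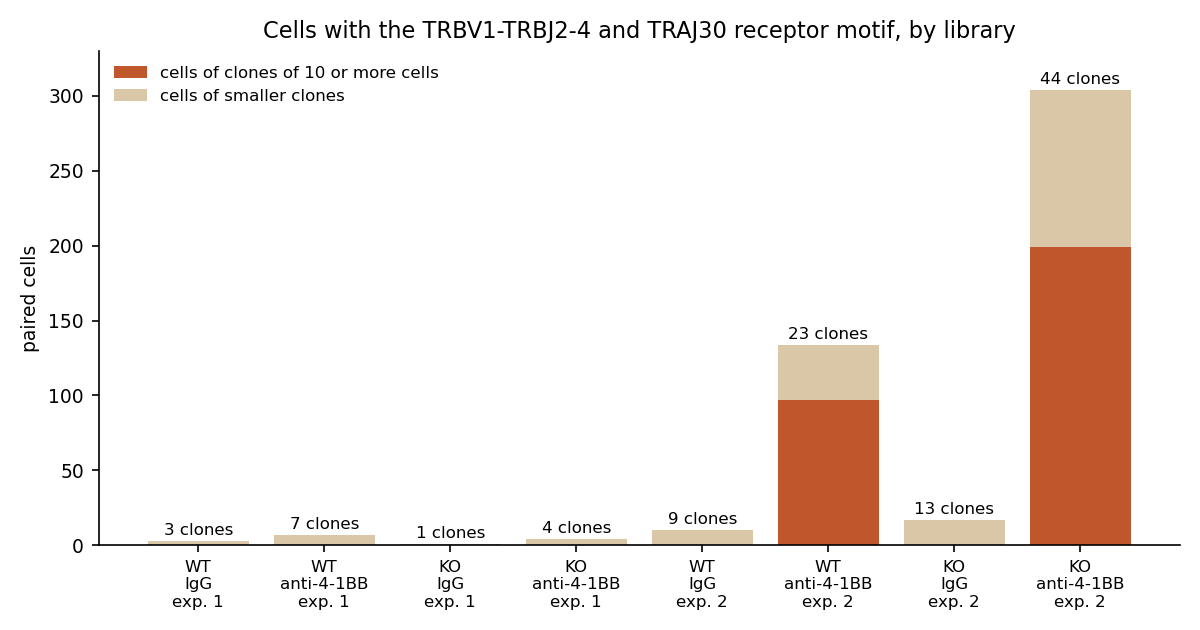
Paired cells with the TRBV1-TRBJ2-4 and TRAJ30 motif in each library (bars from 0, cells), split into clones of 10 or more cells and smaller clones, with the number of clones above each bar. The 2 anti-4-1BB libraries of experiment 2 hold 134 and 304 such cells and the other libraries 1 to 17.

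In experiment 2, KO with anti-4-1BB held a smaller set built on TRBV26 with TRBJ2-7 and TRAV13-1, with 4 large clones of 23, 15, 10 and 10 cells. The 4 shared their TRB residues, with 2 nucleotide sequences among them. The clone of 23 cells and that of 15 shared all residues of both chains as well, and differed in bases of both chains. The clones of 10 cells used TRAJ37 in place of TRAJ34.
KO, 23 cells, beta chain, TRBV26 and TRBJ2-7: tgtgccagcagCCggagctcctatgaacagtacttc
KO, 23 cells, alpha chain, TRAV13-1 and TRAJ34: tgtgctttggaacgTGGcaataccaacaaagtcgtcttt
KO, 15 cells, beta chain, TRBV26 and TRBJ2-7: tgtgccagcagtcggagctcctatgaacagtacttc
KO, 15 cells, alpha chain, TRAV13-1 and TRAJ34: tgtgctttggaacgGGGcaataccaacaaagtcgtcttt
KO, 10 cells, alpha chain, TRAV13-1 and TRAJ37: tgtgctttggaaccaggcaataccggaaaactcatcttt
KO, 10 other cells, alpha chain, TRAV13-1 and TRAJ37: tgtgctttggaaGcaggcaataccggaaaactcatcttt
In the TRB of 15 cells the consensus ends cover the whole CDR3. Each of the 2 clones of 10 cells had 13 near-identical pair relatives spread over 3 other libraries, the largest of 4 cells. These 2 clones shared 1 TRB nucleotide sequence and had near-identical alpha chains, so their relatives can be the same clones counted for both.

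A further pair of large clones had the same residues in both chains in different libraries. It joined TRBV23, a rare TRBV here, to TRBJ2-7 and paired it with TRAV13-1 and TRAJ23. The WT IgG library of experiment 2 had 12 cells of it and the KO anti-4-1BB library 18. Neither treatment nor genotype was shared. The lines show that TRB differed in bases and that the alpha CDR3s had no capitals.
WT IgG, 12 cells, beta chain, TRBV23 and TRBJ2-7: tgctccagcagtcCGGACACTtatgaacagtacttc
WT IgG, 12 cells, alpha chain, TRAV13-1 and TRAJ23: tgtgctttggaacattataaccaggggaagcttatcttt
KO anti-4-1BB, 18 cells, beta chain, TRBV23 and TRBJ2-7: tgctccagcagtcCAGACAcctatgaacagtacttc
KO anti-4-1BB, 18 cells, alpha chain, TRAV13-1 and TRAJ23: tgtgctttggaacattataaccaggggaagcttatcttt

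A larger share of large clones than of clones of 1 cell had a near-identical relative in another library, a difference that did not pass adjustment. A relative was a clone of another library with the same V and J segments and a CDR3 of equal length with at most 1 different residue. A TRB relative was found for 67 of the 120 members (55.8%) and a relative in both chains for 24 (20.0%). Of these 24, 13 were of the TRBV1-TRBJ2-4 set, 4 of the TRBV26-TRBJ2-7 set and 7 of other segments. A relative lay in a library of the other genotype for 23 of the 24. It lay in the member's own experiment for 23 and in the other experiment for 14. Without the TRBV1-TRBJ2-4 set, 10 of 11 members had a relative in their own experiment and 3 in the other. The largest relative was a clone of 2 or more cells for 15 of the 24 members, and of 10 or more for 12.

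By library the share of large clones with a relative in both chains was 14.3%, 23.1%, 0% and 100% in experiment 1 (in the order WT with IgG, WT with anti-4-1BB, KO with IgG, KO with anti-4-1BB) and 11.1%, 19.4%, 0% and 39.3% in experiment 2. Among clones of 1 cell it lay between 1.74% and 3.14% in all 8 libraries. The 100% rests on 1 clone, and the shares of the WT IgG libraries also rest on 1 clone each, 1 of 7 and 1 of 9. Given the low share in clones of 1 cell, a single such clone places a library above. Large clones were above clones of 1 cell in 6 of 8 libraries, and the 2 KO IgG libraries, with 0 of 8 and 0 of 18, were below. The mean difference was 23.5 ± 32.6 points (SD, n = 8 libraries; exact two-sided permutation of signs, p = 0.0312, adjusted p = 0.104 over 10 measures). Without the anti-4-1BB library of KO in experiment 1 it was 12.9 ± 13.8 points (exact permutation p = 0.0625, adjusted p = 0.179), and without the TRBV1-TRBJ2-4 clones 19.2 ± 33.2 points (p = 0.0625, adjusted p = 0.156).

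For TRB alone the share was 56.5% ± 22.1 in large clones and 41.5% ± 1.93 in clones of 1 cell (SD, n = 8 libraries). The difference of 15.1 ± 21.4 points, higher in 6 of 8 libraries, did not pass (exact permutation p = 0.0625, adjusted p = 0.104), and it was 9.06 points without the anti-4-1BB library of KO in experiment 1. At 20 or more cells per clone it turned to -3.42 points. The WT IgG libraries were the 2 in which large clones had fewer TRB relatives, 28.6% against 41.3% and 33.3% against 40.2%. With 2 exceptions the members had no relative in both chains with identical nucleotides. The exceptions were the WT anti-4-1BB clone of 12 cells with residues DR, and a WT IgG clone of 12 cells of experiment 1 with TRBJ2-5 and TRAJ37, each also found in 1 other library with identical bases.

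**Figure D3:**
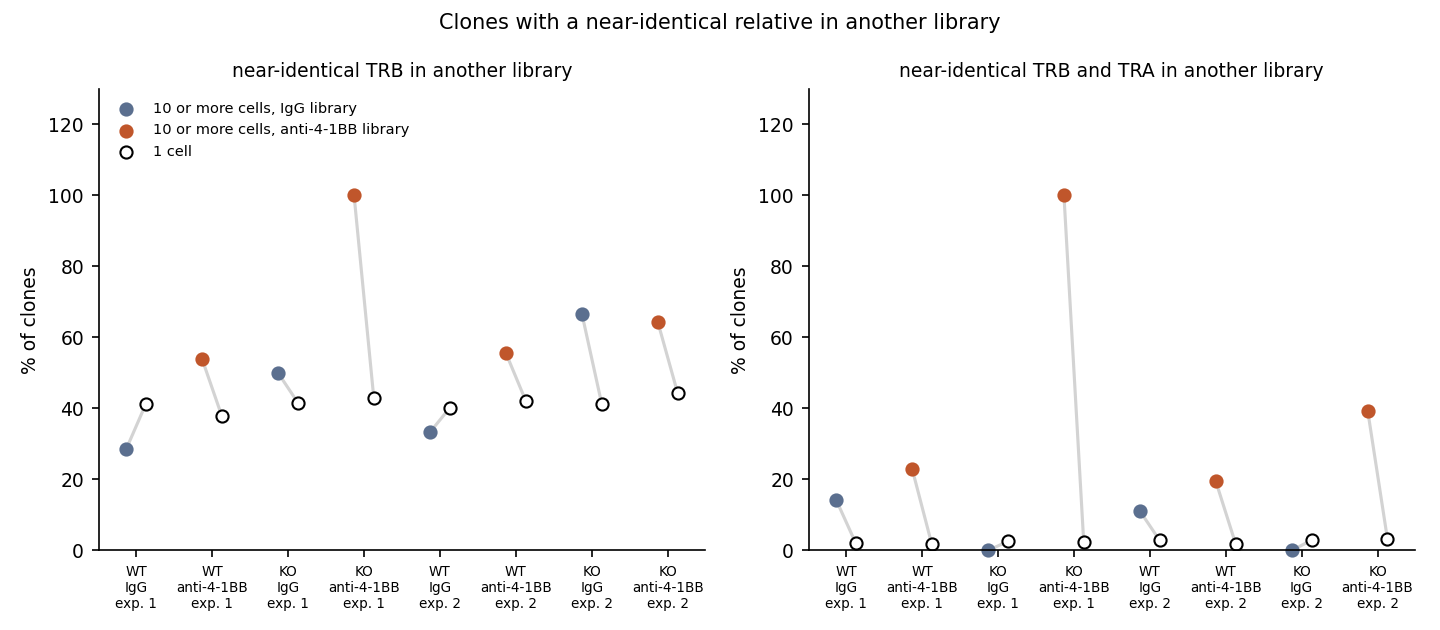
Percent of clones with a near-identical TRB (left) or TRB and TRA (right) in another library, for clones of 10 or more cells (filled, blue IgG and orange anti-4-1BB) and clones of 1 cell (open). In both chains, clones of 1 cell lie between 1.74% and 3.14%, and large clones range from 0% in both KO IgG libraries to 39.3%, apart from the library with 1 large clone at 100%.

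A second alpha chain was recorded in 67 member cells. Its share was lower in member cells than in clones of 1 cell in 7 of 8 libraries, 3.08% ± 2.35 against 5.97% ± 1.58 (SD, n = 8), a difference of -2.89 ± 3.17 points that did not pass (exact permutation p = 0.0547, adjusted p = 0.104). The exception was WT IgG of experiment 1, with 7.77% against 5.21%. In experiment 1 the other libraries had 2.79% against 9.25% (WT anti-4-1BB), 1.01% against 5.88% (KO IgG) and 0% against 6.95% (KO anti-4-1BB, where the 0 is of 11 cells). In experiment 2 the shares were 4.69% against 5.52%, 2.85% against 4.51%, 2.79% against 6.13% and 2.71% against 4.29%. Since a cell is placed by its alpha chain with the most UMIs, a clone with 2 alpha chains can be divided by the rule itself.

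In 11 of the members the same second alpha chain recurred in 2 or more cells. Of the 120, 93 had 0 cells with 2 TRA, 14 had 1 and 13 had 2 or more. In the last 13, 47 of the 53 cells with 2 TRA carried the most frequent second chain of their clone, and in 9 of them every such cell did. A clear case was KO with anti-4-1BB of experiment 2, where 1 TRB (TRBV13-3 with TRBJ1-2) was found in 2 members. In the first, of 19 cells, the main alpha chain was TRAV7D-2 with TRAJ2, and 10 cells carried TRAV13-1 with TRAJ17 as a second chain. In the second, of 16 cells, TRAV13-1 with TRAJ17 was the main chain. The 3 chains are shown because they describe a receptor that the rule counts as 2 clones.
KO anti-4-1BB, both clones, beta chain, TRBV13-3 and TRBJ1-2: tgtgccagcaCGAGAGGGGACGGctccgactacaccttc
KO anti-4-1BB, 19 cells, alpha chain, TRAV7D-2 and TRAJ2: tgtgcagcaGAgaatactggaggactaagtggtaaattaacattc
KO anti-4-1BB, 16 cells, alpha chain, TRAV13-1 and TRAJ17: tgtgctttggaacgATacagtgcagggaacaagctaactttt
In WT with anti-4-1BB of experiment 2, a TRB of TRBV13-3 and TRBJ2-7 was shared in the same way by members of 21 and 14 cells, and 3 cells of the first carried the alpha chain of the second (TRAV6D-6 with TRAJ12). A TRB of TRBV3 and TRBJ2-5 was shared by members of 16 and 14 cells in the KO library, where 1 of the 3 cells with 2 TRA carried both main alpha chains. Counting each TRB of a library once leaves 115 in place of 120. This also joins 3 members of the TRBV26-TRBJ2-7 set in that KO library, where 0 cells had 2 TRA.

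The alpha chain had a higher median UMI count in member cells in 7 of 8 libraries, which did not pass adjustment. The median main TRA contig had 8 UMIs in members and 6 in clones of 1 cell in WT IgG of experiment 1, 10 and 9 in WT anti-4-1BB, 6 and 6 in KO IgG and 11 and 8 in KO anti-4-1BB. In experiment 2 the pairs were 8 and 7, 11 and 9, 9 and 8, and 11 and 10. Members were higher in 7 libraries and equal in 1, by 0.23 ± 0.15 on the log2 scale (SD, n = 8; exact permutation p = 0.0156, adjusted p = 0.104). For TRB the difference was 0.10 ± 0.48 (exact permutation p = 0.594, adjusted p = 0.848), and 0.26 ± 0.20 without the anti-4-1BB library of KO in experiment 1, whose 1 large clone had a median of 7 against 14.

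**Figure D4:**
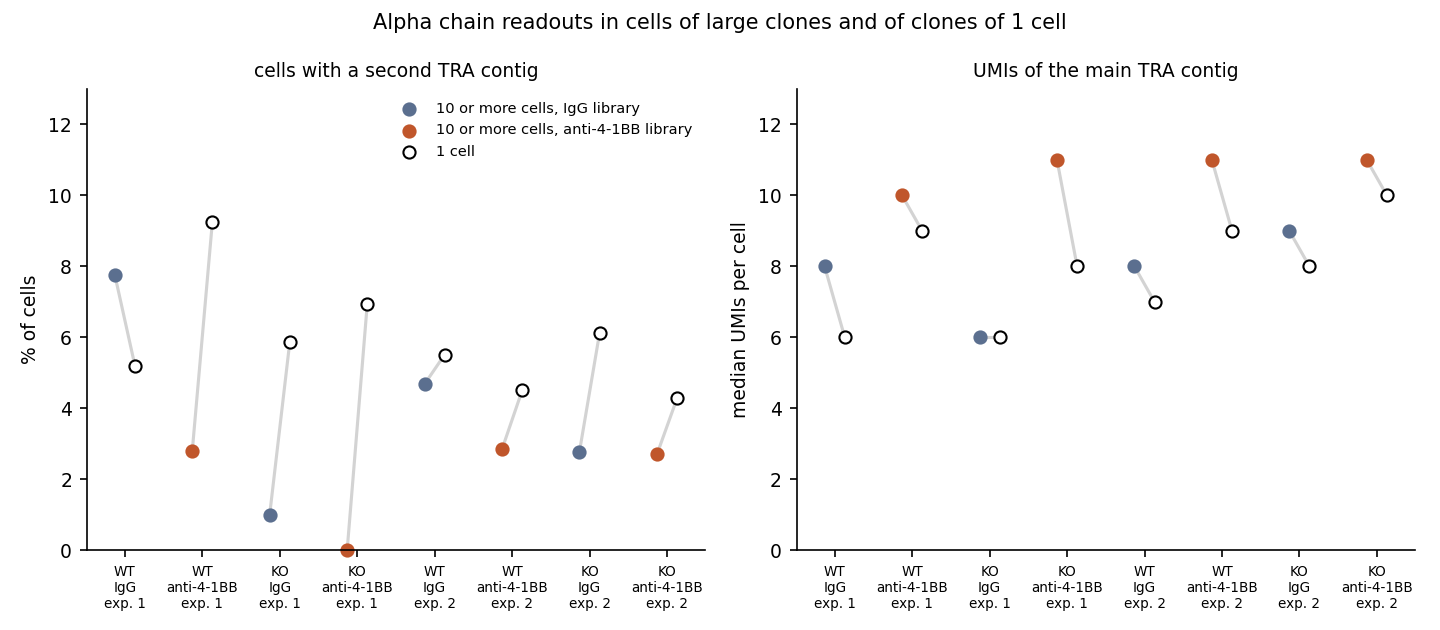
Percent of cells with a second TRA contig (left) and median UMIs of the main TRA contig per cell (right) in each library, for cells of clones of 10 or more cells (filled, blue IgG and orange anti-4-1BB) and clones of 1 cell (open). The second chain is less frequent in members in 7 of 8 libraries, and the TRA median is higher in members in 7 and equal in 1.

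No measure of the CDR3s themselves passed adjustment. The TRB CDR3 had a mean length of 41.2 ± 1.55 bases in large clones and 41.3 ± 0.135 in clones of 1 cell (SD, n = 8 libraries; exact permutation p = 0.984, adjusted p = 0.984). The TRA CDR3 had 39.6 ± 0.796 and 40.3 ± 0.196, shorter by 0.69 ± 0.79 bases and lower in 7 of 8 libraries, which did not pass (exact permutation p = 0.0547, adjusted p = 0.104). Hydropathy on the Kyte-Doolittle scale, where negative values are water-loving, was averaged over the 3 central TRB residues. It was -1.56 ± 0.58 in large clones and -1.13 ± 0.029 in clones of 1 cell, a difference of -0.43 ± 0.60 and lower in 7 of 8 libraries (exact permutation p = 0.0469, adjusted p = 0.104). Without the library with 1 large clone the hydropathy difference was -0.24 ± 0.31 (p = 0.0938 by exact permutation). The net charge of TRB CDR3s differed by 0.015 ± 0.34 (exact permutation p = 0.914) and the share with TRBJ2 by -1.02 ± 31.3 points (p = 0.953). In the library with 1 large clone the TRBJ2 difference was -69.3 points, and the mean without that library was 8.73 points.

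Among runs of 3 residues between the conserved ends of the TRB CDR3, QNT occurred in 23 large clones (19.2% against 7.74% of clones of 1 cell), SQN in 19 and GSQ in 14 (11.7% against 1.79%). All 14 clones with GSQ used TRBV1, and 9 clones with QNT did not. GNT was next, in 13 clones, none with TRBV1 (10.8% against 7.62%), and SYE, in 12 (10.0% against 4.71%). These runs lie largely in the J segments, and they were ranked by the members' own counts, so they are a description.

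More cells carried a member's TRB than were counted by both chains. Cells with exactly 1 TRB, the TRB of a member, numbered 3428, and these include the 2204 member cells. The share of such cells with no TRA contig was 0% to 84.5% over the 120 members (median 20.0%), and it exceeded 50% in 7. The median share by library was 8.33% to 26.3% for members. For TRBs that 10 or more cells carried and that belonged to no member, it was 43.6% to 78.9%. A member needs 10 cells with TRA, so the rule itself favours a low share in members and a high share in the other TRBs. In WT anti-4-1BB of experiment 2, a TRBV23-TRBJ2-7 clone of 15 cells had its TRB in 116 cells, 98 of them without TRA. A TRBV31-TRBJ2-4 clone of 42 cells had 136, with 88 without TRA. The largest clone of that library, 61 cells of TRBV13-1 with TRBJ1-1, had 132, with 64 without TRA. The KO anti-4-1BB clones of 71 and 68 cells had 106 and 113. The plot of clone size with and without the alpha chain shows how far members lie above the line of equal numbers. None can lie below it, since the cells of the clone are part of both counts.

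**Figure D5:**
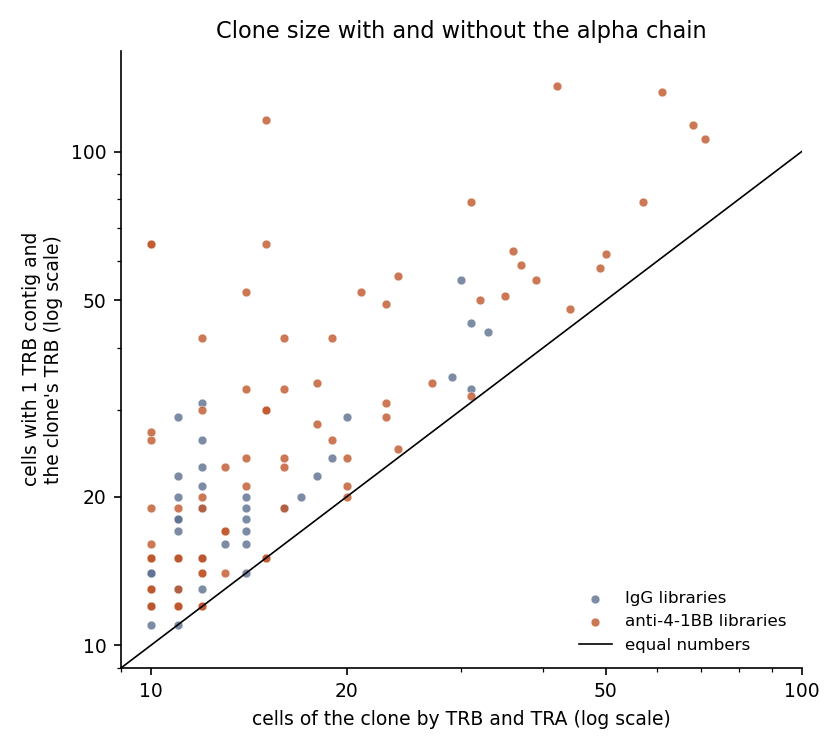
For each of the 120 members, cells of the clone by both chains (horizontal, log scale) against cells of the library with 1 TRB contig and the same TRB (vertical, log scale), with the line of equal numbers. The highest points are at 42 against 136 and 61 against 132 cells, and the point farthest above the line as a ratio is at 15 against 116, all in WT anti-4-1BB of experiment 2.

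Counted by TRB alone, 333 TRBs were carried by 10 or more cells with 1 TRB in a library, and 218 of them belonged to no member. In experiment 1 there were 29, 34, 18 and 4 (in the order WT with IgG, WT with anti-4-1BB, KO with IgG, KO with anti-4-1BB), and in experiment 2 there were 39, 81, 63 and 65. The cells with such a TRB were 6.33%, 4.46%, 5.66% and 1.34% of cells with 1 TRB in experiment 1, and 7.32%, 25.6%, 9.59% and 14.6% in experiment 2. The ordering of treatments within each experiment and genotype was thus the one seen for large clones by both chains. A TRB shared by many cells can hold several clones with different alpha chains: 72 members had other cells with the same TRB and another main TRA.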

How the data were processed

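Each deposited file lists the assembled TRA and TRB contigs of 1 library, with segment labels and CDR3 sequences. Its columns, per the file headers, give counts of reads and UMIs for every contig. Per the submitters' processing notes the authors used bcl2fastq 2.20.0, Cell Ranger 7.1.0 and Seurat, and the build GRCm38. Which V(D)J reference served is not given in the sources used here. All 123611 contigs were marked as cell-associated, confident, complete and productive. Cells with 2 TRB contigs (4077) were left out as possible doublets. A tie in UMIs between 2 TRA chains (210 cells) was settled by reads. Segment coordinates are from the RefSeq annotation of GRCm38.p6, in which 105 of 106 segment labels of the members matched a symbol.

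The members and all lists were chosen with earlier results of these data known. Measures were computed per library for large clones and clones of 1 cell, and their 8 differences tested by all 256 sign patterns (smallest p 0.0078125), adjusted by Benjamini-Hochberg over 10 measures. The pairing is that both values come from the same library. Segments with 10 or more clones were tested with edgeR 4.0.16 in R 4.3.3, with 1 fit per segment type, the number of clones as the library size and the library as a block. DESeq2 1.42.0 and TMM were alternatives. Python 3.11.15, pandas 2.3.3 and scipy 1.17.1 did the rest. Clones described singly are the largest of each library, the 5 largest over all, and members with a pair relative of 2 or more cells elsewhere. Segments are those with the 5 smallest p in each direction and the 5 most used of each type. Sets, shared TRBs and cells without TRA beyond these were chosen after their values were seen.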

Additional observations from a re-analysis of the deposited data

Results flagged for a closer look

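The share of paired cells in clones of 10 or more cells moved in opposite directions with anti-4-1BB in the experiments. The mean of WT and KO, as anti-4-1BB less IgG, was -1.87 points in experiment 1 and 11.3 points in experiment 2. The WT libraries differed by -0.521 points in experiment 1 and the KO libraries by -3.21. In experiment 2 WT differed by 15.3 points and KO by 7.25. After thinning to 2656 paired cells per library the differences were -1.20, -2.97, 12.7 and 6.05 points. The difference between the experiments was not tested, with 2 strata in each. The experiments also differed in the kind of knockout and in tamoxifen, which cannot be told apart from them.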

How the results depend on the processing

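In none of the alternatives run did any of the 10 measures pass an adjusted p of 0.05. The sign patterns left little room for this, with a smallest p of 0.0078125 for 8 libraries and 0.015625 for 7. With 3 UMIs per chain, TRA UMIs had that smallest p for 8 libraries (exact permutation) and an adjusted p of 0.0781. Not passing is therefore weak evidence that a difference is absent. Without the replicate block, that is with large clones and clones of 1 cell compared as separate libraries, second TRA (adjusted p = 0.0645) and relatives in both chains (0.0645) did not pass either, the pair difference stayed at 23.5 points, and 2 segments passed as with the block. Measures near 0 turned sign. The TRBJ2 difference was 4.38 points at 5 or more cells, 15.3 at 20 or more and 0.393 with clones by CDR3 residues. The charge difference was -0.270 at 20 or more cells, -0.00403 with clones by residues and -0.0160 without the TRBV1-TRBJ2-4 clones, an alternative chosen after seeing the data. The TRB relative difference was -3.42 points at 20 or more cells, and that of TRB CDR3 length 0.248 bases with cells of 2 TRB kept. Leaving out 1 library at a time gave -0.487 to 0.164 bases for TRB length, -5.76 to 8.73 points for TRBJ2, -0.0712 to 0.0759 for charge and 0 to 2 segments that passed. Of the segments, 0 passed at 5 or more cells, at 20 or more cells and without the TRBV1-TRBJ2-4 clones, with 14, 10 and 6 at an unadjusted p under 0.05 (edgeR). Exactly 1 passed (TRAJ30) against clones of 2 to 9 cells, with clones by residues and with cells of 2 TRB kept. TMM gave 54 and DESeq2 33. The log2 ratio of TRAV13-1 was -0.45 with TMM, that of TRAV13N-1 -0.16 with TMM and -0.40 without the TRBV1-TRBJ2-4 clones, that of TRBV1 -1.55 without those clones, and that of TRBV23 -7.16 at 20 or more cells, where it is a fit to 0 large clones. The cause was not tested. The clone counts of WT with IgG, WT with anti-4-1BB, KO with IgG and KO with anti-4-1BB were 94, 181, 100 and 100 at 5 or more cells, and 2, 18, 4 and 7 at 20 or more. They were 4.25, 18.9, 10.9 and 11.7 after thinning, and 3, 16, 8 and 10 when a clone had to hold 0.377% of its library. With 3 UMIs per chain, the joined label read as TRBV13-2, clones by residues or cells of 2 TRB kept, the counts stayed within 1.5 times. The 2 measures of bases not encoded in the genome could not be run without a genome.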

Other observations

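Some cells near a member were not counted in it. For 13 members a clone of the same library differed from the member by 1 base over both CDR3s, counting neighbours under 10 cells. There were 15 such neighbours with 28 cells in all, the largest of 8 cells. For 13 members, 26 cells had the same CDR3s under another segment label.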
